A study of Mus musculus with 6 samples.

Results

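A set of 10 genes of ceramide and ganglioside metabolism was followed in the transcriptome of activated mouse B cells with or without Prmt1: Ugcg, St3gal5, St8sia1, B4galnt1, Sgms1, Asah1, Asah2, Sphk1, Sphk2 and Sgpl1. They were found by symbol and are 10 of the 39017 genes in the table of exon counts, and all 10 passed the filter on low counts that left 18268 genes. The list was drawn up with the measured Control and Prmt1-null values known, so the difference of these genes between the genotypes is given as a description. Where a gene of the list is said to be called, this records only its place in the fit across all genes and is not evidence for the difference. The libraries came from C57BL6/J spleen B cells grown as induced germinal center B cells (iGBs), that is, B cells driven to proliferate on 40LB feeder fibroblasts that supply CD40L and BAFF, in the presence of IL-4, for 3.5 days. The 3 Control mice were of genotype Cg1-cre and the 3 Prmt1-null mice of genotype Cg1-cre Prmt1f/f, each with 2 females and 1 male and 1 library per mouse. All 6 mice therefore carried the Cre transgene, which is driven from the Cγ1 locus and acts only once B cells are activated. Feeders had been removed with an antibody to their H2K before RNA was extracted. Ages of the mice were not given in the labels. Such cultures hold no follicle, and T cell help is replaced by the feeders. Any cells that escape Cre would keep Prmt1.

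Ceramide is the central lipid of this pathway: it is made at the endoplasmic reticulum, and it is then converted to sphingomyelin, to glucosylceramide or, by ceramidases, to sphingosine. Glucosylceramide is extended to lactosylceramide, and stepwise addition of sialic acid and N-acetylgalactosamine gives the gangliosides of the plasma membrane. Sphingosine is phosphorylated to sphingosine 1-phosphate, the ligand that guides lymphocytes between tissue and circulation and holds or releases B cells at the follicle through its receptors.

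St8sia1 and Asah2 are the genes of the 10 with the widest separation between genotypes, and the sequences just upstream of their start sites are given here so that their loci can be read beside the counts. RefSeq promoter entries (GRCm38) were matched by symbol for 8 of the 10 genes, and the 250 bases before the start site are written 5′ to 3′ on the gene's own strand. St8sia1 lies on the minus strand, with the stretch at chr6:142964453-142964702, directly before the outermost annotated start. Asah2 is also on the minus strand, with the stretch at chr19:32103141-32103390, and this RefSeq start site lies 5071 bases inside the outermost start of the gene in GENCODE. Capitals mark the motifs found.
St8sia1: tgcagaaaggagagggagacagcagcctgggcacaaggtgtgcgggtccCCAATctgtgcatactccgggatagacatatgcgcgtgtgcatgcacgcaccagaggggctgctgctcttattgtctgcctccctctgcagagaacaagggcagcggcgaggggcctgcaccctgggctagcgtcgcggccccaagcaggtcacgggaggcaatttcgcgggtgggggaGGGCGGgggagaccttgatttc
Asah2: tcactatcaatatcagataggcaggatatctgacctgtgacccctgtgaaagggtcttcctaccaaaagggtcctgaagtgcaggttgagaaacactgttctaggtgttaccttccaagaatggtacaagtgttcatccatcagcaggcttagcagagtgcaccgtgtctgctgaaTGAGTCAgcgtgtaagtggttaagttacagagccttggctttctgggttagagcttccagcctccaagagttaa
The search for motifs covered both strands, and no motif overlapped another in these stretches. The letters of the E-box were CACGTG, a site known for Myc and related factors. GGGCGG was taken as the GC box, the kind of site that Sp1 binds. For the TATA box the letters were TATAAA. An AP-1 site, bound by Fos and Jun proteins, was read as TGANTCA. The shortest of the 5 motifs was CCAAT, after which its box is named. In St8sia1 a GC box began at base -22 and a CCAAT box at base -201, counted back from the start site. Asah2 held an AP-1 site at base -74 and no match to the other 4 motifs. Of all 32851 promoter entries, 32.7% held a GC box, 33.8% a CCAAT box, 6.75% an AP-1 site, 12.4% a TATA box and 6.02% an E-box in the same 250 bases. The upstream stretch of St8sia1 was 63.6% G and C and that of Asah2 47.2%, beside a median of 52.4% over all entries.

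Total counts ran from 45343250 to 62774232 per library, so that 3 counts, the smallest number taken as detected, correspond to 0.0478 to 0.0662 CPM (counts per 1000000 counts of the library, scaled by TMM for all levels that follow). Prmt1 itself was lower in all 3 Prmt1-null libraries, at 26.6 to 31.5 CPM against 70.8 to 87.2 CPM in Control (edgeR log2 fold change −1.44, standard error 0.095, adjusted p = 1.12e-05). B cell markers were abundant in every library, summing to 8120 to 8720 CPM in Control and 8810 to 9190 CPM in Prmt1-null libraries over 7 genes. Summed levels of plasma cell markers (5 genes, 966 to 1090 against 1110 to 1200 CPM) and of myeloid markers (6 genes, 8.92 to 14.8 against 15.6 to 17.4 CPM) also did not overlap between the groups. For single genes, the groups did not overlap for 19.9% of all genes tested. By edgeR fold change, 4 of 5 plasma cell genes, 5 of 7 B cell genes and 3 of 5 tested myeloid genes were higher in Prmt1-null libraries. Each sum thus holds genes of both directions. Among single markers, 0 of the 5 plasma cell genes and 0 of the 7 B cell genes passed the edgeR threshold. Of the 6 myeloid genes 1 passed, Adgre1. At an unadjusted p under 0.05 in edgeR there were 2, 3 and 1, beside 2467 of all 18268 genes tested. DESeq2 called 1 of each list, and limma-voom 1, 0 and 1. Feeder fibroblast markers (14 genes, 31.6 to 37.0 against 35.8 to 42.4 CPM, with 1 of them at 0 throughout) and T cell markers (6 genes, 1.19 to 2.90 against 1.43 to 3.01 CPM) overlapped. The part of these markers in the values below was not tested, and in RNA of a whole culture fewer cells of a type and less RNA per cell cannot be told apart.

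Expressed per kilobase of exon, the 10 genes spanned a wide range of levels. B4galnt1 was highest, with a mean of 89.1 CPM per kilobase over the 6 libraries, and Ugcg followed at 40.0. Asah1 and Sgpl1 came next, at 19.3 and 18.2 CPM per kilobase. Sphk2 reached 7.25, St3gal5 6.85, Sgms1 2.84, Asah2 1.31, St8sia1 0.298 and Sphk1 0.0402 CPM per kilobase. Thus the enzymes that open the glycolipid branch and add N-acetylgalactosamine headed the order, and GD3 synthase and the inducible sphingosine kinase closed it. Of the 9 pairs of neighbours in this order, 7 kept their order in 6 of 6 libraries (two-sided exact sign-flip permutation test, p = 0.03125, the smallest that 6 libraries allow; adjusted p = 0.0402 over the 9 pairs). Asah1 exceeded Sgpl1 in 5 of 6 libraries and by 1.06-fold on average (exact p = 0.1875), and Sphk2 exceeded St3gal5 in 4 of 6 and by 1.05-fold (exact p = 0.656). These neighbours did not differ beyond their spread. With the longest transcript as gene length in place of all exons, Sgpl1 moved before Asah1 and Sgms1 before St3gal5. The pair of St3gal5 and Sgms1 was among the 7 that kept their order by exon length. As the order was set from the means of these same 6 libraries, p describes its steadiness between libraries. It does not cover the choice of gene length.

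**Figure D1:**
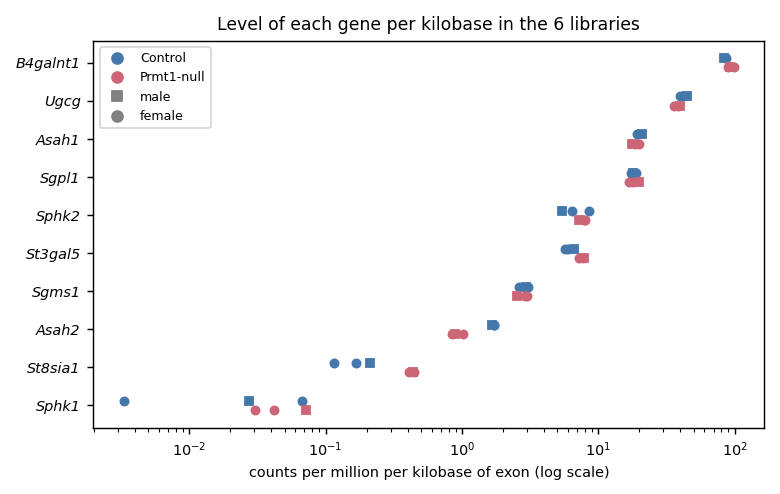
Level of each gene in CPM per kilobase of exon (log axis), one point per library, blue for Control, red for Prmt1-null, squares for males and circles for females. B4galnt1 and Ugcg sit highest and Sphk1 lowest, and the Control and Prmt1-null points of St8sia1 and Asah2 are apart.

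In the fit across all genes by edgeR's quasi-likelihood test, where a gene was called at an adjusted p under 0.05, 1 of the 10 genes was called in each direction, St8sia1 as higher and Asah2 as lower. Over all 18268 genes tested, 1.19% were called, 0.591% as higher and 0.602% as lower. The libraries of the 2 genotypes did not overlap for 5 of the 10 genes (St8sia1, St3gal5 and B4galnt1 higher, Asah2 and Ugcg lower), beside 19.9% of all genes tested. As the genes were selected on this contrast, nothing is read from these counts. The median log2 fold change of the 10 was 0.07, beside −0.000816 over all genes tested. A genotype by sex interaction, a test chosen after the data were seen and resting on 2 males in all, was past the edgeR threshold for 0 of the 10 genes (0 at an unadjusted p under 0.05, lowest adjusted p 0.677), beside 28 of all genes tested, or 0.153%.

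**Figure D2:**
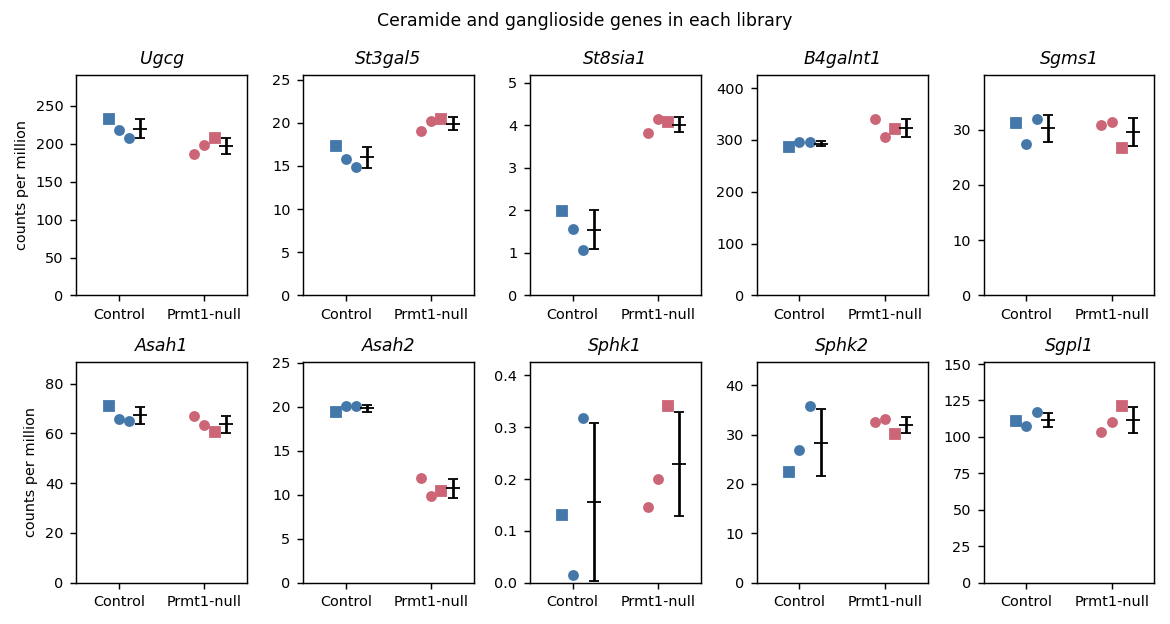
Level of each of the 10 genes in every library in CPM, from 0, with a panel and scale of its own for each gene; blue points are Control, red points Prmt1-null, squares males and circles females, and the black bar is the mean ± SD of 3 libraries. St8sia1 lies at 1.07 to 1.99 in Control and 3.82 to 4.16 in Prmt1-null libraries, and Asah2 at 19.4 to 20.1 and 9.86 to 11.9.

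The ganglioside branch begins with Ugcg (chromosome 4, 59189257 to 59222833), the glucosylceramide synthase that commits ceramide to glycolipids. Its level was 233.2, 218.4 and 208.0 CPM in Control 1, 2 and 3, and 186.0, 198.7 and 207.7 CPM in Prmt1-null 1, 2 and 3. The groups were separated by less than 1 CPM at their nearest libraries, Control 3 and Prmt1-null 3. The log2 fold change was −0.16 (standard error 0.065).

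St3gal5 (chromosome 6, 72097592 to 72154571) encodes the sialyltransferase that makes GM3, the precursor of the more complex gangliosides. Control libraries held 17.3, 15.8 and 14.8 CPM and Prmt1-null libraries 19.0, 20.2 and 20.5 CPM. Every Prmt1-null library was thus above every Control library, at a log2 fold change of 0.32 ± 0.104 (standard error).

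St8sia1 (ENSMUSG00000030283, chromosome 6, 142821545 to 142964452) encodes GD3 synthase, which adds a further sialic acid to GM3 and so opens the b-series of gangliosides. It had 91, 99 and 54 counts in Control 1, 2 and 3, which is 1.99, 1.57 and 1.07 CPM. Prmt1-null 1, 2 and 3 had 209, 250 and 239 counts, or 3.82, 4.16 and 4.07 CPM. The Prmt1-null libraries were close to each other, the Control libraries varied more among themselves, and the lowest Prmt1-null library was still well above the highest Control library. Its mean rose from 1.55 ± 0.461 to 4.02 ± 0.177 CPM (SD, n = 3), 260% of Control, and the log2 fold change was 1.38 (standard error 0.239). Within females the log2 ratio of the means was 1.59 and between the males, 1 of each genotype, 1.03. St8sia1 was among the less abundant genes, at percentile 13.3 of the level per kilobase among genes tested, and it was not among the genes called when Control 2 or any 1 of the 3 Prmt1-null libraries was left out, with log2 fold changes of 1.18 to 1.60 over the 6 libraries left out in turn. The gene shares 149 exonic bases with Gm7457 on the opposite strand, and the strand setting of the counting was not given in the sources used here. Gm7457 itself had 12, 0 and 0 counts in Control and 9, 22 and 4 in Prmt1-null libraries, fewer than St8sia1 in each.

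B4galnt1 (chromosome 10, 127165225 to 127172330), which adds N-acetylgalactosamine to GM3 and GD3 to give GM2 and GD2, was at percentile 95.8 of the level per kilobase among genes tested. Its level was 286.7, 295.4 and 296.6 CPM in Control and 341.0, 306.1 and 320.7 CPM in Prmt1-null libraries. The groups did not overlap, although Prmt1-null 2 was nearer to the Control libraries than to Prmt1-null 1. The log2 fold change was 0.14 (standard error 0.062). B4galnt1 shares 715 exonic bases with Slc26a10 on the opposite strand, which had 190 to 269 counts beside at least 13087 for B4galnt1.

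St8sia1 and B4galnt1 compete for GM3, and their ratio per kilobase of exon gives the balance of these transcripts within a library. St8sia1 was 0.257%, 0.196% and 0.134% of B4galnt1 in Control 1, 2 and 3, and 0.414%, 0.502% and 0.470% in Prmt1-null 1, 2 and 3. St8sia1 was thus the minor transcript in every library of both genotypes. Against St3gal5, it was 2.68% ± 0.606 in Control and 5.66% ± 0.0983 in Prmt1-null libraries (SD, n = 3).

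Ceramide is broken down by ceramidases, and Asah2 (ENSMUSG00000024887, chromosome 19, 31982597 to 32108211) encodes the neutral ceramidase, which acts at the plasma membrane. Control libraries had 19.4, 20.1 and 20.1 CPM and Prmt1-null libraries 11.9, 9.86 and 10.4 CPM, from 885 to 1269 and 593 to 653 counts. The Control libraries were nearly identical, and each Prmt1-null library was well below them. The mean fell from 19.9 ± 0.398 to 10.7 ± 1.07 CPM (SD, n = 3), 54.1% of Control, and the log2 fold change was −0.89 (standard error 0.111). The log2 ratio was −0.88 within females and −0.89 between the males, and the log2 fold changes without single libraries lay between −0.96 and −0.82.

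Asah1 (chromosome 8, 41340197 to 41374773), the lysosomal acid ceramidase, had 71.0, 65.8 and 64.9 CPM in Control and 67.1, 63.5 and 60.4 CPM in Prmt1-null libraries. These ranges overlapped, and the log2 fold change was −0.08 (standard error 0.067). Per kilobase of exon, Asah2 was 8.62% ± 0.578 of Asah1 in Control and 4.91% ± 0.341 in Prmt1-null libraries (SD, n = 3). Acid ceramidase was hence the more abundant transcript of the pair in both genotypes.

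Sgms1 (chromosome 19, 32122727 to 32389714), a Golgi enzyme that turns ceramide into sphingomyelin, lies on the same strand as Asah2 with 14.5 kb between the genes. It had 31.2, 27.5 and 32.0 CPM in Control and 30.8, 31.4 and 26.8 CPM in Prmt1-null libraries, so that its log2 fold change was −0.03 (standard error 0.097). Sgms1 thus overlapped between genotypes while Asah2 did not. In windows of 500 kb on each side, chosen after the values were seen, 0 of the 5 tested neighbours of Asah2 and 0 of the 6 of St8sia1 were past the threshold in edgeR. At an unadjusted p under 0.05 in edgeR there were 0 and 2, beside 2467 of all 18268 genes tested. DESeq2 called 0 and 1 of these neighbours. Their log2 fold changes were −0.07 to 0.21 around Asah2 and −0.23 to 0.03 around St8sia1.

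**Figure D3:**
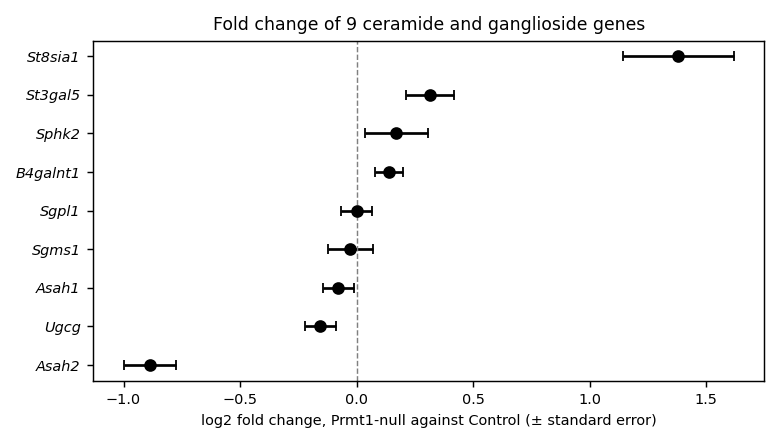
Log2 fold change of Prmt1-null against Control for 9 of the 10 genes, with bars of 1 standard error from edgeR and a dashed line at 0. Sphk1 is left out because it had 1 to 20 counts per library; St8sia1 (1.38) and Asah2 (−0.89) lie at the ends, and the other genes lie between −0.16 and 0.32.

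Sphingosine kinases make sphingosine 1-phosphate, and the lyase Sgpl1 removes it irreversibly. Sphk1 (chromosome 11, 116530925 to 116536674) was barely detected, with 6, 1 and 16 counts in Control and 8, 12 and 20 in Prmt1-null libraries, so no difference could be detected at this depth (log2 fold change 0.58, standard error 0.894). Sphk2 (chromosome 7, 45709467 to 45718002) had 22.5, 26.9 and 35.8 CPM in Control and 32.5, 33.2 and 30.0 CPM in Prmt1-null libraries. Sphk2 was therefore the main kinase transcript, and its spread among Control libraries covered all Prmt1-null values (log2 fold change 0.17, standard error 0.135).

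Sphk2 shares 539 exonic bases with Dbp and 373 with Rpl18, both on the opposite strand. Dbp, a clock-controlled transcription factor, had 9.66, 11.4 and 20.2 CPM in Control and 18.6, 17.1 and 17.2 CPM in Prmt1-null libraries, with the lowest and the highest value in the same Control libraries as Sphk2. Rpl18, a ribosomal protein gene, also had its lowest value in Control 1, at 48.6 CPM, and the other libraries held 64.1 to 69.1 CPM. The part of shared reads in these values was not tested.

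Sgpl1 (chromosome 10, 61098642 to 61147703) had 110.7, 107.5 and 117.0 CPM in Control and 103.5, 110.5 and 121.2 CPM in Prmt1-null libraries. The group means were the same within 1 CPM (log2 fold change 0.00 with a standard error of 0.067), and the ranges overlapped.

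To place the 10 genes in their pathway, 84 other sphingolipid genes in 6 lists were read from the same fit. Of these, 70 were tested, of which 1 was higher and 1 lower in Prmt1-null libraries, 2.86% beside 1.19% of all genes tested. Their groups did not overlap for 19 genes (27.1%, beside 19.9% of all genes), and their median log2 fold change was −0.04.

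De novo ceramide synthesis held the gene that was higher. Sptlc1, a subunit of serine palmitoyltransferase, the enzyme of the first step, had 45.1, 44.3 and 47.4 CPM in Control and 54.7, 55.1 and 58.6 CPM in Prmt1-null libraries (log2 fold change 0.30 with a standard error of 0.067, edgeR adjusted p = 0.0463). It was past the threshold in 1 of the 6 fits without 1 library, that without Control 3, and adjusted p over the left-out libraries ran from 0.0323 to 0.211. Of the other 13 tested genes of this list, 0 passed, and the small regulatory subunit Sptssa (log2 fold change −0.26), the ceramide synthase Cers2 (0.12) and the desaturase Degs1 (−0.12) were among them.

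Glycosphingolipid degradation held the gene that was lower. Glb1, the lysosomal beta-galactosidase that trims GM1, had 45.1, 49.8 and 51.0 CPM in Control and 38.3, 37.4 and 37.7 CPM in Prmt1-null libraries (log2 fold change −0.36, standard error 0.074, edgeR adjusted p = 0.0330). It was past the threshold in 1 of the 6 fits without 1 library, that without Control 1, with adjusted p from 0.0234 to 0.175 over the left-out libraries. Among the other 12 tested genes, 0 passed in edgeR. The GM2 activator Gm2a had 216.2 ± 11.8 CPM in Control and 237.5 ± 13.5 CPM in Prmt1-null libraries, and prosaposin (Psap) 304.0 ± 8.02 and 307.2 ± 9.96 CPM (SD, n = 3).

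In glycosphingolipid synthesis, 0 of 10 tested genes passed. B4galt5, which makes lactosylceramide, the substrate of St3gal5, had a fold change of 0.16 on the log2 scale (standard error 0.063) without overlap between groups. St3gal1, which sialylates gangliosides and O-glycans, had −0.15 (standard error 0.066), also without overlap. B3gnt5, which opens the lacto-series branch, had −0.04 and overlapped. St8sia5, a sialyltransferase of later ganglioside steps, had 0 counts in all 6 libraries.

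Sialic acid supply had 0 of 7 tested genes past the threshold. Gne, the enzyme that starts sialic acid synthesis, had 38.9, 38.0 and 36.1 CPM in Control and 29.2, 31.0 and 32.0 CPM in Prmt1-null libraries (log2 fold change −0.29, standard error 0.080, edgeR adjusted p = 0.102). Cmah, which hydroxylates the activated sugar, had −0.16 (standard error 0.062) without overlap between groups. Cmas, which activates sialic acid and is a neighbour of St8sia1 at a distance of 45.8 kb, had −0.16 (standard error 0.085) and overlapped.

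Among genes of sphingomyelin and ceramide turnover, 0 of 14 tested passed the threshold. The ceramide transporter Col4a3bp had a fold change of −0.20 on the log2 scale (standard error 0.072) without overlap, and the ceramide-1-phosphate transfer protein Cptp 0.31 (standard error 0.127) with overlap. The ceramide kinase Cerk and the glycolipid transfer protein Gltp lay at −0.04 and −0.02.

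Among genes that handle or sense sphingosine 1-phosphate, 0 of 12 tested passed. The lipid phosphatase Plpp1 had 27.1 ± 1.94 CPM in Control and 33.5 ± 1.70 CPM in Prmt1-null libraries (SD, n = 3; log2 fold change 0.30, edgeR adjusted p = 0.127). The phosphatase Sgpp1 and the receptor S1pr3 had log2 fold changes of −0.14 and −0.04, with overlap between groups. In the 4 lists in which edgeR called 0 genes, 2 genes of turnover, 1 of sphingosine 1-phosphate handling, 2 of glycosphingolipid synthesis and 2 of sialic acid supply had an unadjusted p under 0.05. Over all 18268 genes tested, 2467 had such a p in edgeR, so nothing is read from these counts. DESeq2 called 1 gene each in sphingosine 1-phosphate handling (Plpp1) and sialic acid supply (Gne), and limma-voom 0 in these 4 lists.

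**Figure D4:**
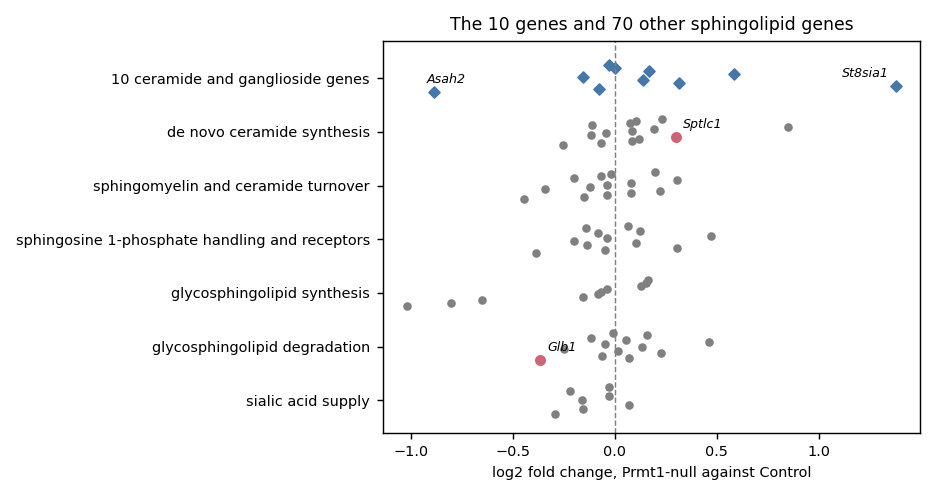
Log2 fold change of Prmt1-null against Control for the 10 ceramide and ganglioside genes (blue diamonds) and the 70 other sphingolipid genes tested (points, by list, spread vertically for legibility). The 2 red points, Sptlc1 at 0.30 and Glb1 at −0.36, are the genes of the 6 lists past the threshold. The 70 genes run from −1.02 to 0.85 around the dashed line at 0. The genes at these ends had only 4 to 26 and 5 to 21 counts per library, with standard errors of 0.775 and 0.698.

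The genes whose levels were most like those of St8sia1 across the 6 libraries, by Pearson r of log2 CPM among 17827 genes, were Ccdc6 (0.992), Mreg (0.991), Ms4a6c (0.991), Gtf2a1 (0.991) and Gm5424 (0.989). All 5 were higher in the 3 Prmt1-null than in the 3 Control libraries, with smaller log2 fold changes of 0.16 to 0.40. The r values run over both genotypes, so that they hold the difference between the groups, and they are given as a description. Ms4a6c, as 1 example, had 196.3, 177.0 and 152.9 CPM in Control and 232.5, 232.9 and 229.8 CPM in Prmt1-null libraries. The order among Control libraries was that of St8sia1 for all 5 genes, which their choice by r favours.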

How the data were processed

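RNA of iGBs from 3 Control and 3 Prmt1-null mice was sequenced as rRNA-depleted libraries made with a stranded kit. The authors trimmed reads (Trimmomatic 0.32, per the submitters' processing notes), aligned them to mm10 (STAR 2.3.0e) and counted them on Ensembl exons (featureCounts 1.4.4), and what they deposited is 1 whole-number count per gene and library, not normalized. Of the 39017 genes, 37693 were matched to GENCODE M21 by gene ID, 803 by symbol and 521 not at all.

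As in the study's methods, the 398 chromosome Y genes were left out. In R 4.3.3 with edgeR 4.0.16, genes were filtered by filterByExpr (minimum count 10), normalized by TMM and tested by the quasi-likelihood test over 18268 genes with Benjamini-Hochberg adjustment and a threshold of 0.05, and the method was tested on simulated data. The standard error is the log2 fold change divided by the root of its F statistic. Each library is a different mouse, so replicate numbers were not a model term. Levels between genes used CPM per kilobase of all annotated exons. Floors of 3 counts cover counting error only, since reads carry no molecular identifiers.

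The 10 genes, the gene lists, the markers and the tests were chosen with earlier results of these data known. Genes named are the 10, Prmt1, genes overlapping them, in each list every gene past the threshold, the 2 with the smallest p and the 2 with the highest level per kilobase, and the 5 genes with the highest correlation to St8sia1. One gene that this rule names is not reported here. St8sia5 and the neighbour windows were chosen after their values were seen. Alternatives were DESeq2 1.42.0, limma-voom (limma 3.58.1), edgeR with the size factors of DESeq2, all genes unfiltered, a replicate block, sex as a covariate, female mice only, each library left out and, for levels, the longest transcript as gene length.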

Additional observations from a re-analysis of the deposited data

How the results depend on the processing

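As a description of genes selected on this contrast, and no sign of stability, 2 of the 10 genes were called in the 7 alternatives other than those that left out 1 library, and 1 to 2 without single libraries, St8sia1 being the one lost. The number of all genes called moved from 218 to 709 with DESeq2, 710 without the filter on low counts and 113 in female mice, and lay between 31 and 350 without single libraries. It was lowest without Prmt1-null 2 (31), Prmt1-null 1 (51), Control 2 (60) and Prmt1-null 3 (77), and was 128 without Control 1 and 350 without Control 3. Of the 70 other sphingolipid genes, 5 were called with DESeq2 (Sptlc1, Glb1, Plpp1 and Gne among them), 0 with the replicate block, 0 in female mice and 0 to 1 without single libraries, against 2 in the reported fit. The cause was not tested.

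Same-numbered libraries were not treated as paired in the reported fit. The correlations of their deviations from the group means were −0.07, 0.04 and −0.08. Libraries of different numbers had −0.07 to 0.13. With 3 libraries per genotype, these values cannot show whether a pairing existed. With the replicate block, 152 genes were called, 2 of the 10 genes among them. Of the 9 pairs of neighbours in the order of levels, 6 kept one order in every library with longest transcripts as gene length and 7 to 8 without single libraries. Depth limits Sphk1, which had 1 to 20 counts.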
